A study of Mus musculus with 39 samples.

Results

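The IL-7 and IL-2 receptor group studied here is a set of 10 genes for receptor chains (Il7r, Il2rg, Il2ra), the kinases bound to them (Jak1, Jak3), the transcription factors these activate (Stat5a, Stat5b) and genes that STAT signals induce and that damp the signal in turn (Cish, Socs2, Socs3). Members were taken as the probe sets annotated to these symbols. Of the 10 genes, 9 had at least 1 probe set carrying their symbol alone, 18 probe sets in all out of 20380, and Il2rg, the common gamma chain, is not analysed here. Each gene was read from its brightest probe set, among 12393 genes. The values are log2 intensities of Affymetrix arrays, so a difference of 1 is a doubling, and levels of different genes are not compared because each probe set has its own brightness.

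The 39 arrays held RNA of B-lineage cells sorted from mouse bone marrow on the surface proteins B220, CD43, IgM and IgD. Normal cells came from adult mice and were pro-B (B220+ CD43+ IgM- IgD-, 6 arrays), pre-B (B220+ CD43- IgM- IgD-, 8 arrays), immature B (B220+ CD43- IgM+ IgD-, 6 arrays) and mature B (B220+ CD43- IgM+ IgD+, 3 arrays). Leukemic cells were sorted with the pre-B markers in a study of MLL-AF4, a fusion of the Mll and Af4 genes found in acute leukemia (16 arrays). For 5 of these (A992, A1322, A1507, 270 and A46) the description says leukemia followed treatment with pIpC, a synthetic RNA duplex used to provoke an interferon response. For 10 it says only that the mouse was leukemic. For the array numbered 116 it names an Mll-AF4stop knock-in mouse and does not mention leukemia, although its cell type label does. The labels give no strain, age in numbers or further allele. They also do not say which normal arrays came from separate mice, so p-values measure the spread between these arrays, which may in part be technical.

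IL-7 made by bone marrow stroma binds a receptor of the IL-7 receptor alpha chain and the common gamma chain. JAK1 sits on the alpha chain and JAK3 on the gamma chain, and together they phosphorylate STAT5, which moves to the nucleus and turns on genes for survival and growth and the brakes CISH and the SOCS proteins. Pro-B and pre-B cells of the mouse depend on this signal, and it is lost as cells begin to display IgM. CD25, the product of Il2ra, is a surface marker by which small pre-B cells are told from pro-B cells.

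STAT5 is known to bind the palindrome TTCNNNGAA, which reads the same on both strands, so 1 search covers both. The window from 250 bases before to 50 bases after the start of each gene was searched in RefSeq's annotation of mouse build GRCm38.p6, and 9 of the 10 genes, Il2rg among them, had 11 windows in all. The motif stood in 3 of those 11, each of a different gene, and in 2726 of all 32851 windows (8.30%). The 2 windows shown belong to Cish and Socs3, the brakes that were both lower in normal pre-B than in pro-B cells and both higher in leukemic than in normal pre-B cells in the comparisons given further on. Both are written 5′ to 3′ on the strand of the gene, with the motif in capitals. The Cish window is chr9:107296409-107296708 (plus strand) and the Socs3 window is chr11:117969317-117969616 (minus strand).
Cish: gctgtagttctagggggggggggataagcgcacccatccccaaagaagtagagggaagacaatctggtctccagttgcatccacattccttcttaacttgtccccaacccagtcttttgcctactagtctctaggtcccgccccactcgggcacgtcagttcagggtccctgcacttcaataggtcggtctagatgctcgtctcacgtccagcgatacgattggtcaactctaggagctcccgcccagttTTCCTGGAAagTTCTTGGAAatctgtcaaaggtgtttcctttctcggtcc
Socs3: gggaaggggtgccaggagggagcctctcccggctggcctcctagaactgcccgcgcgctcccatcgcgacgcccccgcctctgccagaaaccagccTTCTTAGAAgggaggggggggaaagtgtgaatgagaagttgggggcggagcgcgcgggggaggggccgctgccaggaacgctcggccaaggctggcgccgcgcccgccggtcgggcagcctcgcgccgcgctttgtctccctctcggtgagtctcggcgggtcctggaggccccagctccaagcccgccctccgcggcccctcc
The Cish window held 2 matches, TTCCTGGAA and TTCTTGGAA, next to the gene's start, and 150 of the 32851 windows (0.457%) held 2 or more. The Socs3 window held 1 match, TTCTTAGAA, and the Il7r window (chr15:9529827-9530126, minus strand) held 1, TTCAGGGAA. The 2 windows shown were chosen by results of these same data. Il7r, which also held a match, was called neither between pre-B and pro-B cells nor between leukemic and normal pre-B cells. A match is a string of letters and not a measured site, and Socs2 had no entry in the window table.

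Some measured facts about the arrays touch the values below. B-lineage markers (Cd79a, Cd79b, Pax5, Ebf1, Blnk) had a mean between 9.35 and 11.25 on the normal arrays and between 9.45 and 10.42 on 15 leukemic arrays, but 6.96 on the leukemic array numbered 122. That array also had the highest mean of the leukemic arrays for 10 neutrophil and monocyte markers, 8.70. The arrays fall into 2 runs of accession numbers (22 and 17 arrays), with mature B cells in the second only. The 3′ to 5′ difference of the beta-actin control probe sets was 1.18 to 1.46 in the first run and 0.60 to 1.12 in the second. That of Gapdh went the other way, with a mean of 0.97 (0.81 to 1.26) in the first run and 1.29 (1.02 to 1.68) in the second. No label calls these runs batches, and values within a run are given beside the called genes that lose their call in it.

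Il7r was high in the 2 early normal stages and in leukemic cells and fell through the IgM-positive stages. Pro-B arrays lay between 11.50 and 11.79 (median 11.71) and pre-B arrays between 11.75 and 12.10 (median 11.92). Immature B arrays lay between 10.13 and 11.19 (median 10.95), all below every pre-B array, and the 3 mature B arrays read 7.33, 8.23 and 9.28. Leukemic arrays had a median of 11.91 and reached 12.13, and their lowest value was 8.58, on array 122. The next lowest, on array 15, was 11.01. The order of the group means was thus pre-B 11.91, pro-B 11.69, leukemic 11.65, immature B 10.73 and mature B 8.28, and the pro-B and leukemic means differed by less than the larger of their SDs.

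Il2ra followed another course. Pro-B arrays lay between 5.05 and 6.54 (median 5.87), and pre-B arrays between 9.24 and 10.16 (median 9.85), with no overlap. Immature B arrays lay between 8.02 and 9.29 (median 8.72), and the mature B arrays read 5.14, 5.69 and 6.87. Leukemic arrays were widely spread, from 4.64 on array 270, below every normal array, through a median of 6.81 to 9.33 on array 228. Only array 228 reached the range of normal pre-B cells. The leukemic mean of 6.85 ± 1.29 (SD, n = 16), the mature B mean of 5.90 ± 0.88 (SD, n = 3) and the pro-B mean of 5.78 ± 0.59 (SD, n = 6) did not differ beyond their spread as neighbours in the order.

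The kinase and transcription factor genes varied less. Jak1 was highest in mature B cells (10.80, 11.09 and 11.41), above every pro-B array (10.01 to 10.67), and the means of the other 4 groups lay between 10.02 and 10.33. Jak3 ran from a mean of 5.15 ± 0.68 (SD, n = 8) in pre-B to 6.90 ± 0.60 (SD, n = 3) in mature B cells, and each step in its order was smaller than the spread. Stat5a and Stat5b were lowest in pre-B cells, at 9.93 ± 0.18 and 9.04 ± 0.18 (SD, n = 8), and their means in the other groups lay between 10.28 and 10.58 for Stat5a and between 9.26 and 9.49 for Stat5b. The leukemic array numbered 226 had the lowest reading of both, 9.44 for Stat5a and 8.34 for Stat5b, and the lowest leukemic Jak3, 4.23.

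The 3 brakes divided the groups differently. Cish read 5.69 to 6.93 in pro-B cells (median 6.25), 4.86 to 5.51 in pre-B cells (median 5.05), 4.51 to 4.98 in immature B cells (median 4.90) and 3.86, 4.67 and 5.34 in mature B cells. On leukemic arrays it ran from 4.52, on array 116, through a median of 6.76 to 9.42, and 14 of 16 exceeded the highest normal pre-B reading. Socs2 was high in pro-B (10.08 to 11.01, median 10.48) and pre-B cells (9.69 to 10.56, median 10.14), lower in immature B cells (8.10 to 9.57, median 8.96) and lowest in mature B cells (5.36, 7.10 and 7.37). Its leukemic values ran from 8.33, on array 116, through a median of 11.26 to 12.90, and the next lowest was 8.60, on array 122. Socs3 was dim in pre-B cells, with a mean of 4.22 ± 0.40 (SD, n = 8) that lies among the lowest 25% of probe set means (limit 4.27). Its other group means lay between 5.01 and 6.41, and its mature B values were far apart at 4.20, 7.17 and 7.85. In the order of the means, the leukemic and pro-B groups did not differ beyond their spread for Cish (6.88 and 6.32), Socs2 (11.18 and 10.50) or Socs3 (5.73 and 5.78). The step from pro-B to pre-B exceeded the spread for Cish, as did those from pre-B to immature and from immature to mature B cells for Socs2, each with no overlap of the arrays.

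**Figure D1:**
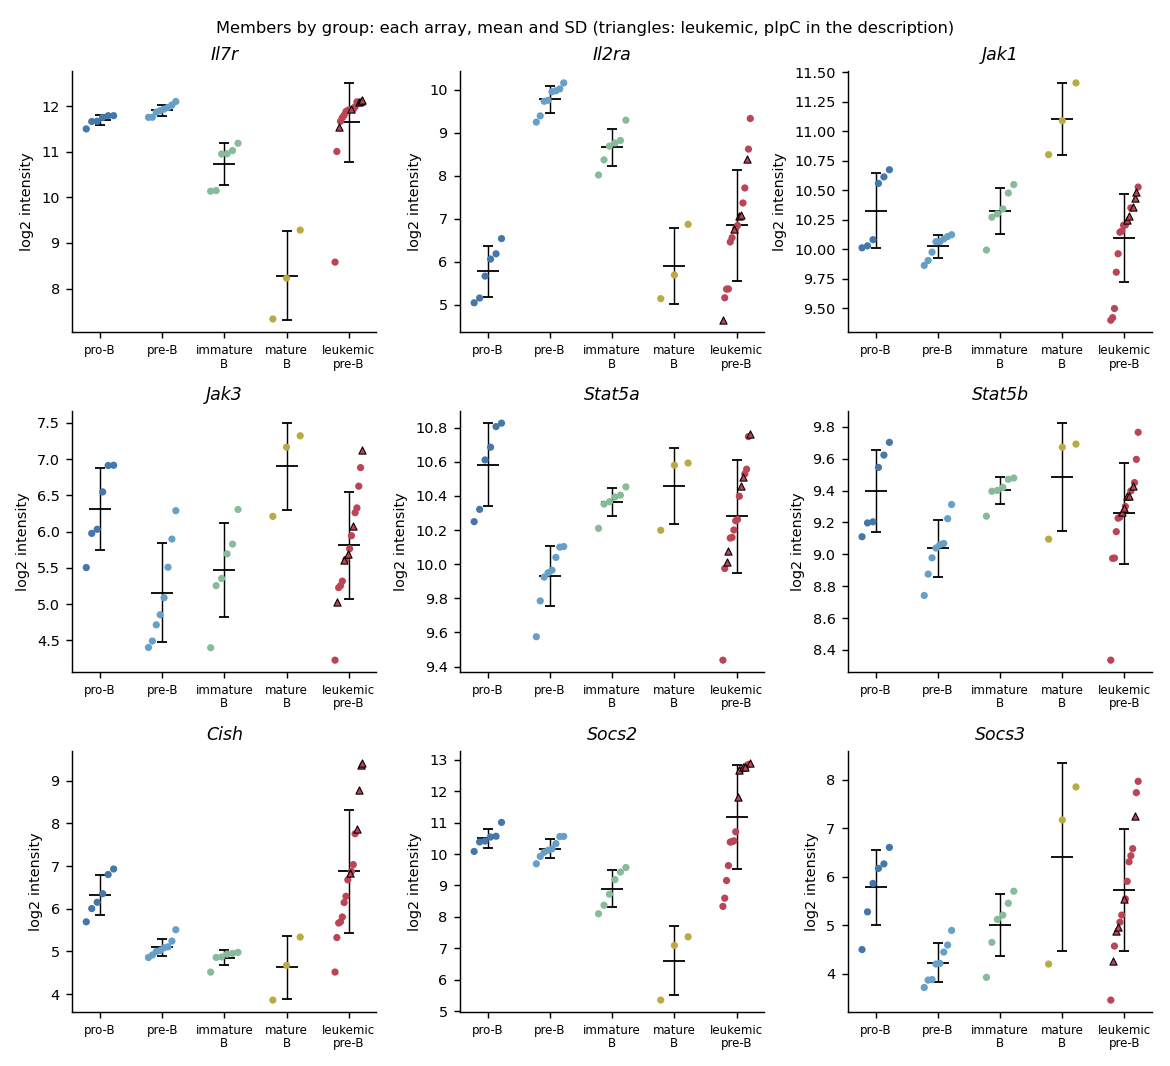
Log2 intensity (y axis) of the 9 measured genes in the 5 groups (x axis), 1 point per array, with the mean as a bar and the SD as whiskers; triangles are the 5 leukemic arrays with pIpC in the description. Il7r and Socs2 step down from pre-B to mature B cells, Il2ra peaks in pre-B cells, and the leukemic points of Il2ra, Cish and Socs2 spread more widely than those of any normal stage with over 3 arrays.

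The first comparison asked how leukemic cells differed from the normal stage with the same surface markers. Il2ra was lower and Cish and Socs3 were higher in leukemic than in normal pre-B cells, while the receptor chain Il7r, both kinases, both Stat5 genes and Socs2 did not pass the test. In all, 3 of 9 genes were called at a limma adjusted p under 0.05, and 16% of all 12393 genes were called in this comparison. The median difference of the 9 genes was 0.35, against -0.01 over all genes. Il2ra fell by 2.93 on the log2 scale (SE 0.44, limma adjusted p = 2.80e-05), a 7.63-fold difference, and 15 of 16 leukemic arrays read lower than the lowest of the normal pre-B arrays. Its second probe set fell by 2.17 (SE 0.27, limma adjusted p = 2.55e-06). Without array 122 the difference was -2.82 and without array 116 it was -2.97.

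Cish rose by 1.79 (SE 0.49, limma adjusted p = 0.0116), a 3.45-fold difference. Within the first run alone the difference was 1.63 (limma adjusted p = 0.203), and within the second it was 2.05 (limma adjusted p = 0.0342). With the 5 pIpC arrays left out it was 1.07 (SE 0.32, limma adjusted p = 0.0269). Socs3 rose by 1.5 (SE 0.43, limma adjusted p = 0.0171), with 12 of 16 leukemic readings over the highest normal pre-B reading, and its 2 other probe sets differed by 0.70 and 1.49. The one at 0.70 was dim in both groups (means of 3.35 in normal and 4.05 in leukemic pre-B cells). The one at 1.49 was dim in normal pre-B cells (3.22). Within the first run the Socs3 difference was 1.49 (limma adjusted p = 0.169) and within the second 1.64 (limma adjusted p = 0.0955), so this gene kept its size and not its call. The 10 neutrophil and monocyte markers moved as well: 6 were lower in leukemic cells, their mean per array was 5.10 to 8.70 against 7.72 to 9.78 in normal pre-B cells, and Itgam was dim in both. With that mean in the fit Cish differed by 1.92 (limma adjusted p = 0.0923) and Socs3 by 1.41 (limma adjusted p = 0.166), and Il2ra kept its call. Of the 5 plasmacytoid dendritic cell markers 3 were lower as well, with a mean per array of 5.39 to 8.81 against 5.63 to 8.74, as were 2 of the 5 B-lineage markers. Of the 10 T and NK cell markers 2 were lower, and their mean per array was 4.47 to 6.80 against 5.41 to 6.03. The part of these cells in the differences was not tested beyond that fit. In arrays of sorted bulk RNA, more expressing cells and more RNA per cell cannot be told apart.

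The genes that missed the test were not all alike in size. Stat5a differed by 0.35 (SE 0.13, limma adjusted p = 0.0595), with 12 of 16 leukemic readings over the highest normal pre-B reading. Without array 226 Stat5a differed by 0.41 (limma adjusted p = 0.00639) and Stat5b by 0.28 (limma adjusted p = 0.0456), so 5 of 9 genes were then called, and without array 154 Stat5a differed by 0.37 (limma adjusted p = 0.0495). With the neutrophil and monocyte mean in the fit Stat5a differed by 0.59 (limma adjusted p = 0.0306). Jak3 differed by 0.66 (SE 0.30, limma adjusted p = 0.161), and with the run as a covariate by 0.86 (SE 0.27, limma adjusted p = 0.0238), which is called. The leukemic arrays were 12 of the first run and 4 of the second against 4 and 4 of normal pre-B cells, and Jak3 read higher in the second run in both, with means of 5.57 and 6.54 in leukemic and 4.87 and 5.44 in normal pre-B cells. Socs2 differed by 1.0 (SE 0.56, limma adjusted p = 0.264), with 9 leukemic arrays above and 4 below the whole normal pre-B range. Il7r differed by -0.27 (SE 0.29, limma adjusted p = 0.628), and by -0.06 (SE 0.10) without array 122. Jak1 had 3 probe sets that differed by 0.39, -0.39 and 0.07, none of them called; the one at -0.39 differed between the runs, at 7.90 to 8.24 in the first and 9.12 to 9.25 in the second within normal pre-B cells.

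Against pro-B cells, the stage before, 0 of 9 genes were called, while 15.7% of all genes were (1950 genes by limma, and 4377 at an unadjusted p under 0.05). None of the 9 had an unadjusted limma p under 0.05 on its brightest probe set, while the second Il2ra probe set differed by 0.81 (unadjusted limma p = 0.0114, adjusted p = 0.0639). On the brightest probe sets the largest differences were Il2ra at 1.07 (SE 0.52, limma adjusted p = 0.145), Socs2 at 0.68 (SE 0.64, limma adjusted p = 0.458) and Cish at 0.56 (SE 0.57, limma adjusted p = 0.499). The second Socs2 probe set differed by 1.18 (SE 0.72, limma adjusted p = 0.251). Il7r differed by -0.05 (SE 0.33), and by 0.16 (SE 0.12) without array 122. These p-values do not show that leukemic and pro-B levels are the same. Markers of other cells were lower on leukemic arrays. These were all 5 plasmacytoid dendritic cell markers (mean per array of 5.39 to 8.81 against 10.28 to 11.74 in pro-B cells), 7 of 10 neutrophil and monocyte markers (5.10 to 8.70 against 9.45 to 10.42) and 8 of 10 T and NK cell markers (4.47 to 6.80 against 7.52 to 9.18). Their part in the values was not tested beyond a fit with the neutrophil and monocyte mean. The second run alone gave an Il2ra difference of -0.27.

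**Figure D2:**
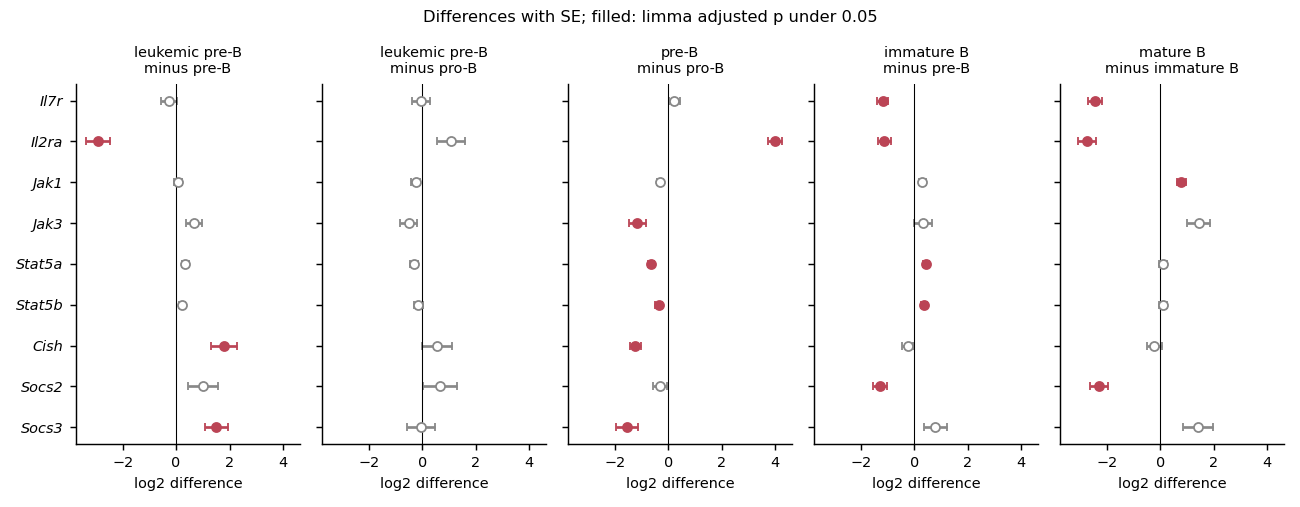
Log2 difference (x axis) of each of the 9 genes (y axis) in 5 comparisons, with the SE as whiskers; filled red points are genes called at a limma adjusted p under 0.05. The largest difference is Il2ra between pre-B and pro-B cells (4.0), and no gene is called between leukemic and pro-B cells.

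Between pro-B and pre-B cells Il2ra rose, while Jak3, Stat5a, Stat5b, Cish and Socs3 fell, which made 6 of 9 genes called where 33.6% of all genes were. The median of the 9 genes was -0.36, against 0.11 over all genes. Il2ra rose by 4.0 (SE 0.26, limma adjusted p = 1.63e-10), a 16-fold difference, with every pre-B array above every pro-B array. Cish fell by 1.23 (SE 0.21, limma adjusted p = 7.07e-05) and Stat5a by 0.65 (SE 0.11, limma adjusted p = 4.24e-05), also without overlap of the arrays. Arrays of the 2 stages did not overlap for 10.8% of all genes. Socs3 fell by 1.55 (SE 0.42, limma adjusted p = 0.00763), Jak3 by 1.16 (SE 0.32, limma adjusted p = 0.00928) and Stat5b by 0.36 (SE 0.12, limma adjusted p = 0.0257). The arrays of these 3 genes overlapped between the stages. Il7r differed by 0.22 (SE 0.20, limma adjusted p = 0.405) and Socs2 by -0.32 (SE 0.26, limma adjusted p = 0.337).

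Within the runs Jak3 missed the test in the first (-0.97, limma adjusted p = 0.0568), and Socs3 (-1.64, limma adjusted p = 0.107) and Stat5b (-0.21, limma adjusted p = 0.379) missed it in the second. The second probe set of Stat5b differed by 0.08, that of Stat5a by -0.31 and that of Socs2 by 0.14, none of them called. The Stat5a one was dim in both stages, with means of 3.51 in pro-B and 3.20 in pre-B cells. Without pro-B array 2, 4 or 6, or pre-B array 7, Stat5b missed the test (differences of -0.33, -0.30, -0.31 and -0.32). Jak1 differed by -0.30 (limma adjusted p = 0.0540) and passed without pro-B array 1, 3 or 5 (-0.37, -0.36 and -0.35) and with the run as a covariate (limma adjusted p = 0.0378). Its other probe sets differed by -0.61 (limma adjusted p = 0.00203) and -0.34 (limma adjusted p = 0.419). Markers of other cells fell in the same step: 9 of 10 T and NK cell markers, all 5 plasmacytoid dendritic cell markers measured, and 7 of 10 neutrophil and monocyte markers. Pro-B arrays had a T and NK marker mean of 7.52 to 9.18 against 5.41 to 6.03 in pre-B cells, and a dendritic marker mean of 10.28 to 11.74 against 5.63 to 8.74; Itgam was dim in both stages and Cd3g was dim in pre-B cells. With the neutrophil and monocyte mean in the fit, Il2ra, Stat5a and Cish kept their calls and Jak3 (-0.53), Stat5b (-0.34) and Socs3 (-0.87) lost theirs. The part of the T, NK and dendritic cells in these differences was not tested.

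From pre-B to immature B cells, when IgM appears on the surface, both receptor genes and Socs2 fell and both Stat5 genes rose. This made 5 of 9 genes called, where 19.6% of all genes were. Il7r fell by 1.18 (SE 0.20, limma adjusted p = 0.000116), a 2.27-fold difference, and Socs2 fell by 1.28 (SE 0.26, limma adjusted p = 0.000813), both without overlap. Il2ra fell by 1.12 (SE 0.26, limma adjusted p = 0.00278), with 5 of 6 immature B arrays below every pre-B array. Stat5a rose by 0.43 (SE 0.11, limma adjusted p = 0.00392), with all 6 immature B arrays above every pre-B array. Its second probe set differed by 0.19 and was not called (limma adjusted p = 0.357). That probe set was dim in both stages (means of 3.20 in pre-B and 3.39 in immature B cells), so it cannot decide the point. Arrays of these stages did not overlap for 9.67% of all genes. Stat5b rose by 0.36 (SE 0.12, limma adjusted p = 0.0335), but its second probe set differed by 0.01, and leaving out pre-B array 1, 5 or 7 or immature B array 1, 2, 3, 5 or 6 ended the call, with differences from 0.32 to 0.36.

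Within the runs these calls were less even. In the first run Il2ra differed by -0.94 (limma adjusted p = 0.121) and Stat5a by 0.37 (limma adjusted p = 0.0676), and in the second Socs2 differed by -1.0 (limma adjusted p = 0.114). Stat5b missed the test in both, at 0.35 (limma adjusted p = 0.220) and 0.37 (limma adjusted p = 0.155). Il7r kept its call in both. Jak1 differed by 0.30 (limma adjusted p = 0.0872), and by 0.36 (limma adjusted p = 0.0350) without immature B array 4; another of its probe sets differed by 0.50 (limma adjusted p = 0.0117). Cish differed by -0.24 (SE 0.21), Jak3 by 0.32 (SE 0.32) and Socs3 by 0.78 (SE 0.42), none of them called. Of the markers of other cells, 4 of 10 for T and NK cells were lower in immature B cells (mean per array of 4.59 to 4.96 against 5.41 to 6.03), 3 of 10 for neutrophils and monocytes were higher (8.83 to 10.17 against 7.72 to 9.78) and 2 of 5 for erythroid cells were higher (5.31 to 6.55 against 5.18 to 6.04). Of the 5 plasmacytoid dendritic cell markers 1 was higher and 1 lower. With the neutrophil and monocyte mean in the fit Stat5b lost its call (0.35, limma adjusted p = 0.0952) and the other 4 genes kept theirs. The part of the other cells was not tested.

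The last normal step, from immature to mature B cells, continued the fall of Il7r, Il2ra and Socs2, and Jak1 rose. Here 4 of 9 genes were called, where 5.25% of all genes were. Il7r fell by 2.45 (SE 0.27, limma adjusted p = 6.77e-06), a 5.47-fold difference, and Il2ra by 2.75 (SE 0.34, limma adjusted p = 2.30e-05), a 6.75-fold difference. Socs2 fell by 2.29 (SE 0.34, limma adjusted p = 0.000168), but its second probe set fell by 0.88 and was not called (limma adjusted p = 0.152). Jak1 rose by 0.78 (SE 0.16, limma adjusted p = 0.00311), but its other probe sets differed by 0.44 (limma adjusted p = 0.210) and 1.37 (limma adjusted p = 0.0561) and were not called. The probe set at 1.37 averaged 8.22 in the first run and 9.57 in the second within immature B cells. Mature B cells, all of the second run, averaged 10.26 on it. The arrays of the stages did not overlap for any of these 4 genes, as for 10.7% of all genes.

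Mature B cells had only 3 arrays, all of the second run, and single arrays moved some values. Without mature B array 1 Jak1 differed by 0.63 (limma adjusted p = 0.0679) and 241 genes were called in place of 651, and without mature B array 3 364 were. Jak3 differed by 1.43 (SE 0.43, limma adjusted p = 0.0505), and by 1.59 (limma adjusted p = 0.0281) without immature B array 1 and 1.77 (limma adjusted p = 0.0251) without mature B array 2. With the neutrophil and monocyte mean in the fit Jak3 differed by 1.27 (limma adjusted p = 0.0402). It was not called in the second run alone or with the run as a covariate. Immature B arrays of the first run read no higher than 5.35 for Jak3. Those of the second run averaged 5.94, against 6.90 in mature B cells, so part of the Jak3 difference went with the run. Socs3 differed by 1.40 (SE 0.55, limma adjusted p = 0.172), and by 2.50 (limma adjusted p = 0.000922) without mature B array 2, its lowest. Its immature B arrays averaged 4.59 in the first run and 5.42 in the second, against 6.41 in mature B cells. Stat5a and Stat5b each differed by 0.09.

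Among the leukemic arrays the widest gap in the Socs2 values, 1.10, parted them into 2 sets, and Cish was spread across both. Arrays 116, 122, 226, 15, 228, 227, 224 and 117 read 8.33 to 10.71 for Socs2, with Cish between 4.52 and 7.04. Arrays A992, A1322, 17, A1507, 270, 154, 153 and A46 read 11.80 to 12.90, with Cish between 6.15 and 9.42. The second Socs2 probe set placed the same arrays at 6.17 to 8.17 and at 9.36 to 11.34. The widest gap of that probe set lay elsewhere, between array A992 at 9.36 and array A1322 at 10.70. On the brightest probe set these 2 arrays read 11.80 and 12.67, so the split is not clean. The sets were drawn from the values themselves and are not groups of the study. All 5 pIpC arrays were in the upper set, together with arrays 17, 153 and 154. Because of the gap no correlation of Socs2 over all 16 arrays is given, though its pairs count among the 6 that later p-values were adjusted over. Within the lower set Socs2 and Cish had r = 0.81 (exact permutation p = 0.0152, adjusted over the 2 sets 0.0303, two-sided, n = 8) and rho = 0.71 (exact permutation p = 0.0576). Within the upper set r was -0.56 (exact permutation p = 0.108) and rho was -0.71 (exact permutation p = 0.0576). The cut was made on the values of Socs2, 1 of the 2 genes tested. The values within the sets describe 8 arrays each and do not say how the 2 genes relate across all leukemic arrays.

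**Figure D3:**
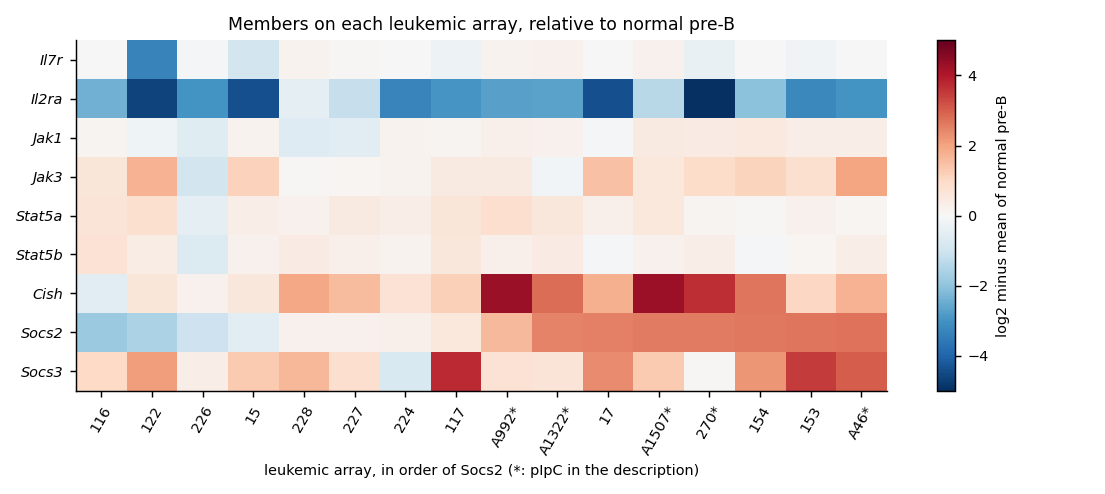
Log2 intensity of each of the 9 genes (rows) on each of the 16 leukemic arrays (columns, in order of Socs2) minus the mean of normal pre-B cells; red is higher, blue is lower, and a star marks pIpC in the description. Il2ra is below the normal pre-B mean on every leukemic array, Socs2 changes from blue to red along the row, and the darkest Cish cells are among the starred arrays.

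The arrays with pIpC in the description read 6.84, 7.87, 8.79, 9.36 and 9.42 for Cish, and the other 11 read 4.52 to 7.76, so 4 of 5 lay above all of the others. The means were 8.46 ± 1.10 (SD, n = 5) and 6.16 ± 0.90 (SD, n = 11), a difference of 2.29 (SE 0.49). Socs2 averaged 12.58 ± 0.44 (SD, n = 5) with pIpC and 10.54 ± 1.63 (SD, n = 11) without, a difference of 2.04 (SE 0.68). In the fit of the 16 leukemic arrays neither was called (limma adjusted p = 0.646 and 0.933), nor was any of the 12393 genes (0%), while 603 genes had an unadjusted limma p under 0.05. With all 39 arrays in the fit, whose spread then comes from the normal arrays as well, 59 genes were called and Cish was the only 1 of the 9 among them (limma adjusted p = 0.00139). The Cish difference was 2.74 in the first run and 1.54 in the second, where 2 arrays of each kind remained. The other 7 genes differed by -0.51 to 0.46 and none was called.

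Il7r and Il2ra varied together over the leukemic arrays by rank. Over 16 arrays r was 0.53 (permutation p = 0.0260, adjusted over 6 pairs 0.0711) and rho was 0.73 (permutation p = 0.00216, adjusted 0.0130). Without arrays 122 and 15, the farthest from the median of Il7r, r was 0.69, and within the first run it was 0.66 over 12 arrays. Il7r and Cish had r = 0.32 (permutation p = 0.244, adjusted 0.366) and rho = 0.57 (permutation p = 0.0222, adjusted 0.0444), with r = 0.28 without the same 2 arrays and 0.33 in the first run. Il2ra and Cish had r = 0.16 (permutation p = 0.549, adjusted 0.659) and rho = 0.26 (permutation p = 0.332, adjusted 0.499), with r = 0.42 without arrays 228 and 270 and 0.38 in the first run.

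**Figure D4:**
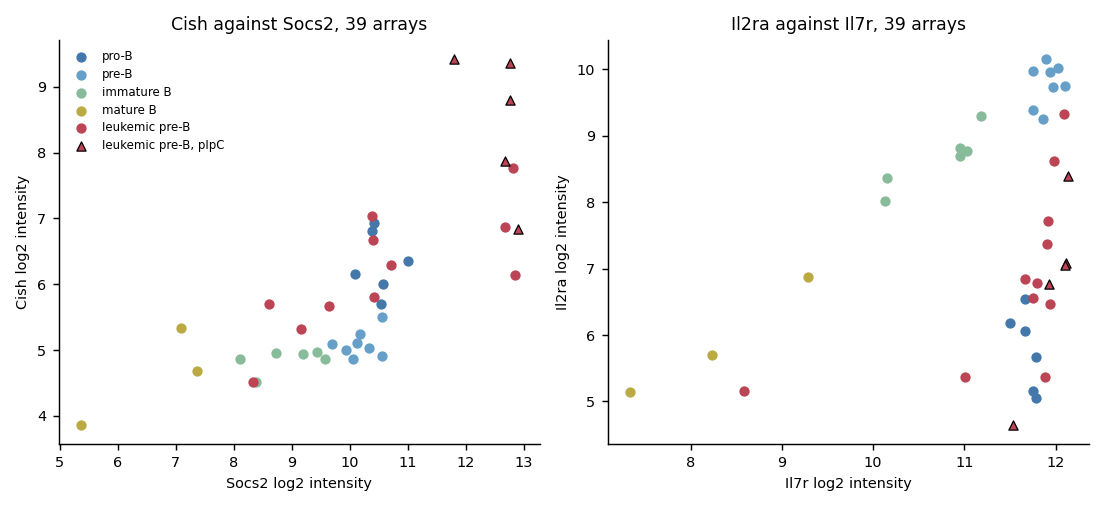
Left, Cish against Socs2, and right, Il2ra against Il7r, in log2 intensity, 1 point per array (39) coloured by group, with triangles for leukemic arrays with pIpC in the description. On the left the leukemic points lie on both sides of a gap in Socs2 between 10.71 and 11.80; on the right normal pre-B cells sit at the upper right corner and most leukemic arrays below them at a like Il7r level.

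Other genes of the pathway gave a mixed picture. The counts of called genes stand beside the shares of all genes called. These were 16% for leukemic against normal pre-B cells, 15.7% against pro-B cells and 33.6% from pro-B to pre-B cells. They were 19.6% in the step to immature B cells and 5.25% in the step to mature B cells. Of 10 measured genes described as STAT5 targets outside the 9, 3 rose and 3 fell between normal and leukemic pre-B cells, with a median of -0.33 against -0.01 over all genes. Myc, a driver of growth, rose by 2.73 (SE 0.29, limma adjusted p = 2.31e-07), Lta, a lymphocyte cytokine, by 1.57 (SE 0.32) and Bcl2, which blocks cell death, by 1.31 (SE 0.43). The 3 that fell are named after their values were seen: the survival kinases Pim1 (-0.88) and Pim2 (-1.14) and the survival factor Mcl1 (-0.32). In the step from pro-B to pre-B cells 4 of the 10 rose and 3 fell: Myc fell by 2.49 (SE 0.33), Bcl2 fell by 2.36 (SE 0.26) and the cyclin gene Ccnd2 fell by 1.91 (SE 0.24). Bcl2l1, a survival factor named after its values were seen, rose by 1.60 (SE 0.19). In the step to immature B cells 6 rose and 3 fell, led by Ccnd2 (2.48, SE 0.24), Lta (2.01, SE 0.25) and Bcl2 (1.56, SE 0.26). From immature to mature B cells 2 rose and 2 fell. Between leukemic and pro-B cells 1 rose (Lta, 1.33, SE 0.37) and 1 fell (Ccnd2, -2.58, SE 0.83).

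Of 6 other receptor genes of the family 1 rose and 1 fell from pro-B to pre-B cells, where 33.6% of all genes were called. In the step to immature B cells 2 rose and 2 fell (19.6% of all genes were called), and 2 rose in the step to mature B cells (5.25%). Il2rb, the beta chain that IL-2 and IL-15 share, fell by 3.65 (SE 0.23, limma adjusted p = 1.36e-10) from pro-B to pre-B cells and was lower in leukemic than in pro-B cells (-3.96, SE 0.40). It is also a gene of NK and T cells, whose markers fell in both comparisons as given above. Il15ra rose by 0.75 (SE 0.14) in the pro-B to pre-B step and was lower in leukemic than in normal pre-B cells (-1.37, SE 0.23), the only 1 of 6 family receptors called there. Il4ra, the receptor of IL-4, rose by 1.97 (SE 0.22) in immature B and by a further 1.04 (SE 0.28) in mature B cells. Among 7 ligand genes Il15 was the only one called between leukemic and normal pre-B cells (-2.07, SE 0.29), and its leukemic mean of 3.40 lies under the limit for dim probe sets. Il7 itself had means of 2.81 in pre-B and 3.12 in pro-B cells, also under that limit.

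Of 6 other JAK and STAT genes 4 fell from pro-B to pre-B cells (33.6% of all genes were called), with Stat4, known from T and NK cells, at -2.54 (SE 0.38), Stat2 at -0.85 (SE 0.24) and Tyk2 at -0.70 (SE 0.20). Of these, 3 (Stat2, Tyk2 and Jak2) were also lower in leukemic than in pro-B cells (-1.17, -1.03 and -0.93). Stat6, which carries the IL-4 signal, was the only 1 called between leukemic and normal pre-B cells (-0.73, SE 0.21). Of 15 other brakes 1 fell in that comparison (Pias1, -0.33, SE 0.10), where 16% of all genes were called. In the step to immature B cells 6 of the 15 rose and 1 fell (19.6% of all genes were called), led by the phosphatase gene Ptpn6 (2.15, SE 0.20), the adaptor Sh2b3 (1.33, SE 0.22) and Socs5 (1.17, SE 0.17). Of 7 factors that act on Il7r transcription 4 rose from pro-B to pre-B cells (33.6% of all genes were called), among them Foxo1 (1.03, SE 0.10) and Foxp1 (0.88, SE 0.15). Foxp1 was lower in leukemic than in normal pre-B cells (-0.48, SE 0.12).

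Genes with the most similar course to each of the 9 were taken by Pearson r over all 39 arrays, among 7310 brighter genes, as a description that mixes stages, runs and leukemic arrays. Il2ra was closest to Ppp2r5a (r = 0.91, and 0.92 over the 16 leukemic arrays), Reln (0.86) and Cdc42ep3 (0.84). Il7r was closest to Tnfrsf19 (0.87), Uhrf1 (0.86) and Ube2e3 (0.85). Cish was closest to Ift46 (0.82, and 0.94 over the leukemic arrays), Pdk1 (0.80) and Txnrd3 (0.79), and Socs2 to Epb41l4b, Mnd1 and Elovl6 (0.84, 0.84 and 0.83). Stat5b had Stat5a as its closest gene (0.82, and 0.75 over the leukemic arrays). For Jak3 the closest was Naglu (0.89), for Stat5a Mboat7 (0.88), for Jak1 Gimap6 (0.82) and for Socs3 Ddrgk1 (0.76).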

How the data were processed

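RNA of 39 samples was extracted with Trizol, and 20 ng was amplified and biotin labelled, per the labels' protocols. The deposited values are linear intensities, 1 per probe set and array, and the submitters' processing notes name RMA without a version. Whether all arrays were normalized together is not given in the sources used here. The authors' deposited intensity values were taken to log2 with no offset.

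Of 22690 probe sets, 64 controls, 691 with several symbols and 1555 with none were left out, among them the Jak3 probe sets that also carry a second symbol. Each of 12393 genes was read from its brightest probe set, by the mean of the 39 arrays. Comparisons used limma 3.58.1 in R 4.3.3 (lmFit, eBayes with an intensity trend), with Benjamini-Hochberg adjustment over all genes at 0.05. Leukemic comparisons used the 2 groups compared, the 3 normal steps used 1 fit of the 23 normal arrays, and the pIpC comparison used the 16 leukemic arrays. The normal steps share arrays, as do the 2 leukemic comparisons. The fits were tested on simulated data. Arrays have no read depth, and their number limits the precision.

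The genes and lists were chosen with earlier results of these data known. Of each pathway list, called genes with the 3 largest differences in a comparison were to be named, and for each of the 9 genes the 3 with the highest r among the brightest 60%. Correlations used 100000 permutations. Alternatives were normalization, a filter on dim genes, probe set choice, arrays in the fit, the trend, the accession run, the neutrophil and monocyte marker mean, pIpC, the replicate number as a block and each array left out.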

Additional observations from a re-analysis of the deposited data

Results flagged for a closer look

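Groups of at most 10 arrays (mature B cells left out) were screened for single arrays far from the others, 27 group and gene pairs in all, and chance alone flags about 1 in 20 of them. Stat5b on immature B array 4 was the lowest of 6 at 9.24, with a gap to the next of 0.654 of the whole range. Cish on immature B array 1 was the lowest of 6 at 4.51, with a gap of 0.742 of the range.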

How the results depend on the processing

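Of 552 values of the 9 genes under settings other than leaving out an array, 480 kept their direction and their side of the threshold, 30 lost a call, 12 gained one and 30 changed sign; all values that changed sign belonged to differences that were not called. Il2ra kept its call under all 11 alternatives in both the leukemic to normal pre-B and the pre-B to pro-B comparison, as did Il7r under all 11 in the immature B and all 10 in the mature B step. The causes of the changes below were not tested.

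Leukemic against normal pre-B gave 1 of 9 genes (1001 of all genes) in the first run alone and 1133 of all genes with the neutrophil and monocyte mean in the fit. Leukemic against pro-B gave 813 genes with the dimmest 40% left out, 344 and 786 in the first and second run, 168 with the neutrophil and monocyte mean and 996 without pIpC arrays. Without probe sets of shared or variant sequence (names ending _x_at, _s_at or _a_at) only 6 of the 9 genes were measured, since Jak3, Stat5a and Stat5b have no other. Pre-B against pro-B gave 3 of those 6 genes, and 3 of 9 with the neutrophil and monocyte mean, and over all genes 2509 with the dimmest left out, 2626 with all 39 arrays in the fit, 2191 and 2055 in the runs and 2103 with that mean. Immature B against pre-B gave 3 of those 6, and of the 9 genes 2 with 39 arrays and 2 and 3 in the runs, and 1414 genes with 39 arrays and 1314 in the first run. Mature against immature B gave 203 genes with 39 arrays and 1026 with run as a covariate. The pIpC comparison gave 1 gene without those probe sets, 1 in the first run, and 59, of them 1 of the 9, with 39 arrays.

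Leaving out 1 array gave 3 to 5 of the 9 genes for leukemic against normal pre-B (5 without array 226). It gave 860 to 2777 genes against pro-B (957, 1286, 860 and 1252 without pro-B array 6, 1, 2 or 3). It gave 241 to 801 for mature against immature B (241 and 364 without mature B array 1 or 3) and 0 to 2 for pIpC (2 without array A46).

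Signs changed for Jak1 between leukemic and normal pre-B cells (-0.012 in the first run, -0.054 without pIpC arrays). Between leukemic and pro-B cells they changed for Il7r (0.039 as the mean of its probe sets), Il2ra (-0.27 in the second run), Jak1 (0.039 in the second run, 0.085 with the neutrophil and monocyte mean), Jak3 (0.21), Stat5a (0.090) and Stat5b (0.27, and 0.054 as the mean of its probe sets) with that mean, Cish (-0.16 without pIpC arrays) and Socs3 (0.029 after quantile normalization, 0.13 without the variant probe sets, 0.012 with run as a covariate, 0.023 in the first run, 0.11 without pIpC arrays). In the normal steps they changed for Il7r (-0.038 with the neutrophil and monocyte mean) and Socs2 (0.14 without the variant probe sets) from pro-B to pre-B and for Jak3 (-0.21 with that mean) in the immature B step. For pIpC they changed for Il2ra (0.033 as the mean of probe sets, 0.32 with run as a covariate, 0.31 and 0.34 in the runs, 0.43 with the neutrophil and monocyte mean), Jak3 (-0.074 with run as a covariate, -0.17 in the first run, -0.12 with that mean), Stat5a (-0.18 in the second run, -0.079 with that mean) and Stat5b (-0.072 with that mean). Over single arrays left out, the ranges that crossed 0 were -0.088 to 0.16 for Il7r and -0.31 to 0.11 for Socs3 against pro-B, -0.017 to 0.28 for Stat5b and -0.59 to 0.15 for Cish in the mature B step, and -0.48 to 0.46 for Il2ra and -0.16 to 0.36 for Jak3 with pIpC.

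Same-numbered normal arrays of 1 run deviated from their group means no more alike (median r 0.271 over 25 pairs) than others of that run (0.273). The r of the 25 pairs ran from -0.45 to 0.66, and the group means span both runs, so deviations hold run differences too. The medians therefore cannot decide whether the numbers pair the samples. With the replicate number as a block, pre-B against pro-B called 4 of 9 genes (3061 of all genes). Immature B against pre-B called 4 (2554) and mature against immature B 4 (572). Jak3 (-0.96) and Stat5b (-0.31) in the first of these and Stat5b (0.32) in the second lost their calls. That fit also left out pre-B arrays 7 and 8, whose numbers no other normal array carries. These changes therefore cannot be credited to the block alone. Signal over background limits Socs3 in pre-B cells, whose mean lies under the dim limit of 4.27.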
